A study of Mus musculus with 6 samples.

Results

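*Ccnd1*, *Ccnd2*, *Ccnd3*, *Cdk4*, *Cdk6*, *Cdkn1a*, *Cdkn1b*, *Cdkn2c*, *Rb1* and *Rbl1* encode the D-type cyclins, their kinases, inhibitors of cyclin-dependent kinases (CDKs) and substrates of those kinases. These 10 genes were taken by symbol from the 55487 genes in the count tables, and all 10 passed the filter on low counts. They were chosen by symbol with their counts in these libraries, and the difference between C75S and wild-type (WT) hepatocytes, already known. Their values in that comparison are therefore a description, and nothing is supported with them.

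D-type cyclins connect growth signals outside the cell to the cell cycle. With CDK4 or CDK6 they phosphorylate the retinoblastoma protein and its relative p107, which releases E2F transcription factors and lets a cell leave G1 for S phase. Inhibitors of the Cip/Kip family (p21, p27) bind cyclin-CDK complexes, and those of the INK4 family (p18) bind CDK4 and CDK6 directly. Hepatocytes in an adult liver are mostly quiescent, and induction of cyclin D1 is a known step of their re-entry into the cycle after partial hepatectomy and in culture.

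Hepatocytes, the cells that make up most of the liver's mass, were taken from mice aged 6 to 8 weeks, and RNA collected 48 h later was sequenced. One group of 3 libraries came from AEG-1-C75S homozygotes and the other 3 from AEG-1-WT mice, both born to heterozygous parents, and all 6 libraries carry the treatment label Control. AEG-1, the product of *Mtdh*, is a membrane protein of the endoplasmic reticulum, and the C75S allele exchanges a palmitoylated cysteine for serine, so the comparison asks what changes when that residue cannot be palmitoylated. The labels used here give neither strain nor sex, nor whether each library had its own mouse, so p-values measure the spread between libraries, which may be technical.

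Gene counts per library ranged from 16944723 to 21044292, and C75S replicate 1 was the shallowest. Levels are given as CPM (reads of the gene per 1000000 gene counts), scaled between libraries by TMM, edgeR's trimmed-mean normalisation. Hepatocyte markers were abundant in all libraries, at 82430 to 96149 CPM summed over 12 genes in C75S and 91695 to 100164 in WT. Of all 12741 genes tested, 3.11% had an adjusted p under 0.05 (edgeR quasi-likelihood test, Benjamini-Hochberg), 1.74% as higher and 1.37% as lower in C75S.

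By that criterion 3 of the 10 genes were called: *Ccnd1* and *Cdk6* were higher in C75S and *Cdkn1a* was lower. Every C75S library lay above every WT library for *Ccnd1*, *Ccnd2*, *Ccnd3* and *Cdk6*, which held for 9.02% of all tested genes. Every C75S library lay below every WT library for *Cdkn1a* and *Rb1*, which held for 8.96%, so the groups were separate in one direction or the other in 18% of tested genes. Because the genes were listed with this contrast known, nothing is read from these counts.

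**Figure D1:**
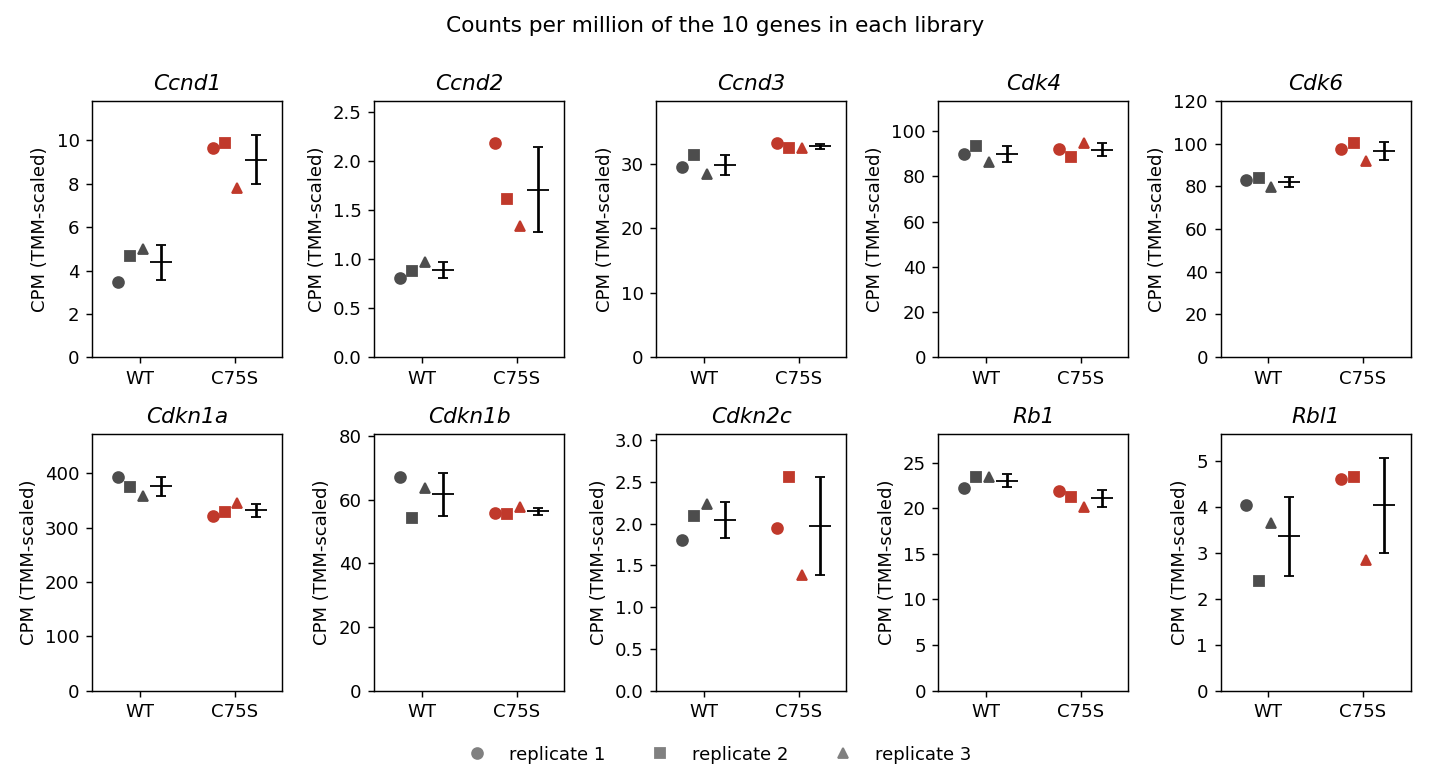
Each panel plots 1 gene, with its CPM (TMM-scaled, axis from 0) in the 3 WT and 3 C75S libraries as symbols by replicate, and the mean with its SD (n = 3) beside them. The C75S and WT symbols are farthest apart, relative to their level, for *Ccnd1* and *Ccnd2*, while those of *Cdk4*, *Cdkn1b*, *Cdkn2c* and *Rbl1* overlap.

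Among the cyclins, *Ccnd1* (ENSMUSG00000070348, GRCm38 chromosome 7, 144929931 to 144939925, minus strand), which encodes cyclin D1, was measured at 9.65, 9.87 and 7.81 CPM in C75S replicates 1 to 3 and at 3.47, 4.68 and 4.997 CPM in the WT replicates. The lowest C75S library was well above the highest WT library. The C75S mean was 9.11 ± 1.13 CPM and the WT mean 4.38 ± 0.81 CPM (SD, n = 3 each). This is a 2.08-fold difference, or 1.06 on the log2 scale (SE 0.16). These values rest on 73 to 208 counts per library. With any 1 library left out the estimate lay between 0.91 and 1.16. Of all tested genes, 0.424% had a larger log2 fold change. In bulk RNA, more cells that contain a transcript and more transcript per cell cannot be told apart.

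*Ccnd2* (ENSMUSG00000000184, chromosome 6, 127125162 to 127152193, minus strand), encoding cyclin D2, was near the lower end of detection. It was found at 2.18, 1.61 and 1.34 CPM in the C75S libraries and at 0.807, 0.877 and 0.97 CPM in the WT libraries, or 17 to 38 counts. The groups did not overlap, and the C75S libraries were more spread than the WT libraries. The log2 fold change was 0.94 (SE 0.34), close to the 1.06 of *Ccnd1* but with an SE of 0.34 against 0.16, and the gene was not called. Without C75S replicate 1, the library with the highest level, the estimate was 0.74.

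*Ccnd3* (ENSMUSG00000034165, chromosome 17, 47505051 to 47599691, plus strand), encoding cyclin D3, had the highest counts of the cyclins. Its levels were 33.1, 32.4 and 32.4 CPM in C75S against 29.4, 31.4 and 28.4 CPM in WT. All C75S libraries were above all WT libraries, but by little: the log2 fold change was 0.13 (SE 0.07) and the gene was not called.

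To set genes side by side, levels were divided by the length of the merged exons of each gene, as CPM per kilobase (kb). Merged exons can be longer than any 1 transcript: for *Ccnd3* they cover 8775 bases, and its longest annotated transcript has 3858. A level per kb can then be understated, so orders and shares between genes hold for this divisor. On this scale *Ccnd3* stood at 3.39 ± 0.17 CPM per kb in WT and 3.72 ± 0.05 in C75S, *Ccnd1* at 0.93 ± 0.17 and 1.93 ± 0.24, and *Ccnd2* at 0.094 ± 0.009 and 0.182 ± 0.046 (mean ± SD, n = 3 each). The order *Ccnd3*, *Ccnd1*, *Ccnd2* was the same in both genotypes, with no overlap between neighbours. The summed level of the 3 cyclins was 4.41 ± 0.24 CPM per kb in WT and 5.84 ± 0.30 in C75S. *Ccnd1* made up 17.6%, 21.3% and 24.1% of this sum in the WT libraries and 33.8%, 35.1% and 30.2% in the C75S libraries, a share that does not depend on scaling between libraries. The share of *Ccnd3* was correspondingly 76.8% ± 3.40 in WT and 63.8% ± 2.91 in C75S. A description of mRNA shares says nothing of the proteins, whose stability is regulated.

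**Figure D2:**
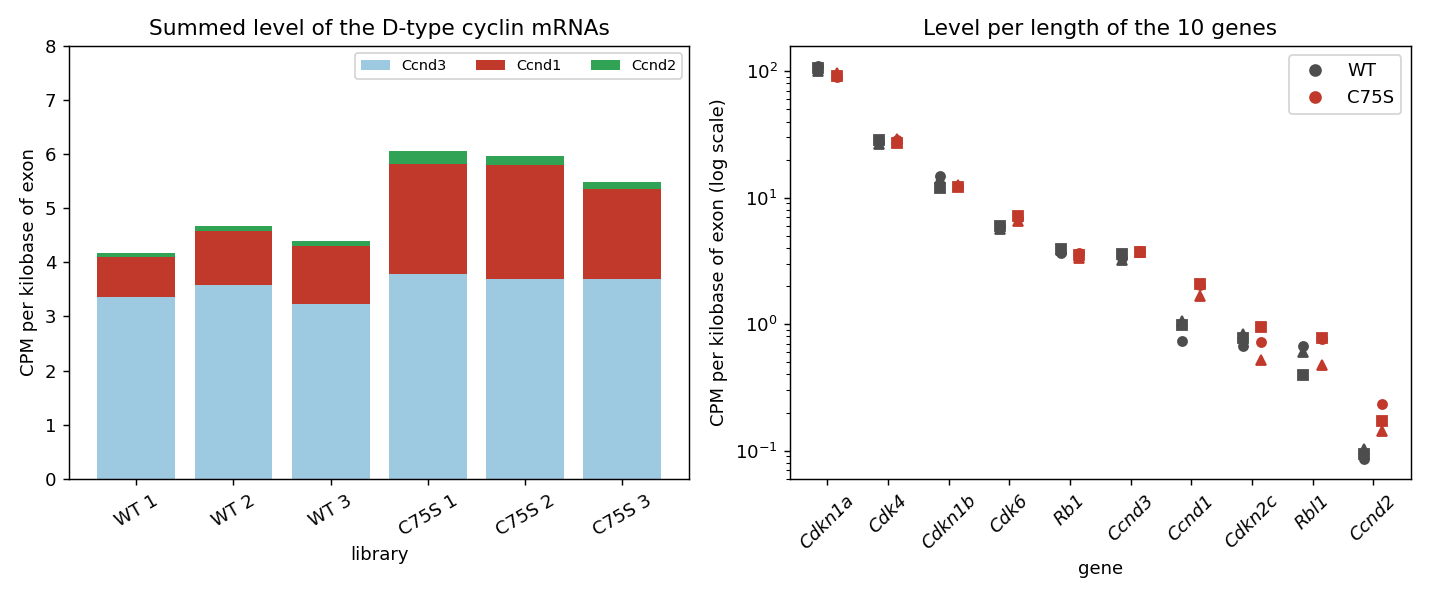
The left panel stacks the CPM per kb of exon of *Ccnd3*, *Ccnd1* and *Ccnd2* in each library, and the right panel plots all 10 genes on a log scale, 1 symbol per library, ordered by their WT mean. The C75S bars reach 5.49 to 6.06 and the WT bars 4.18 to 4.66 CPM per kb, with the *Ccnd1* segment wider in C75S.

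The kinases that D-type cyclins activate were both well expressed. *Cdk4* (ENSMUSG00000006728, chromosome 10, 127063534 to 127067920, plus strand) was at 92.2, 88.7 and 94.6 CPM in C75S and at 89.9, 93.5 and 86.3 CPM in WT. The groups overlapped throughout, with a log2 fold change of 0.03 (SE 0.05). *Cdk6* (ENSMUSG00000040274, chromosome 5, 3341485 to 3531008, plus strand) was at 97.3, 100.1 and 91.9 CPM in C75S and at 82.9, 83.7 and 79.5 CPM in WT. All C75S libraries were higher, with a log2 fold change of 0.23 (SE 0.05), or 1.18-fold. *Cdk6* was no longer called without C75S replicate 2 (log2 fold change 0.20, edgeR adjusted p = 0.0885) or without WT replicate 3 (0.21, edgeR adjusted p = 0.0713).

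Although their counts were similar, *Cdk6* has longer exons, and per kb *Cdk4* was the more abundant kinase mRNA, at 27.7 ± 1.11 CPM per kb in WT against 5.87 ± 0.16 for *Cdk6* (SD, n = 3). *Cdk6* made up 17.5% ± 0.25 of the summed kinase level in WT and 19.6% ± 1.19 in C75S. The kinase sum itself overlapped between genotypes, at 32.2 to 34.8 CPM per kb in WT and 34.5 to 35.7 in C75S.

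The start of *Cdk4*, a known target of MYC, is shown for the E-boxes (CACGTG, the letters bound by MYC and related factors) of its promoter. The table of RefSeq promoters used here (GRCm38.p6) has entries for 7 of the 10 genes, and none for *Ccnd1*, *Ccnd2* and *Rb1*. In chr10:127063285-127063533, on the plus strand and ending just before the first annotated exon, the capitals mark 4 E-boxes:
Cdk4: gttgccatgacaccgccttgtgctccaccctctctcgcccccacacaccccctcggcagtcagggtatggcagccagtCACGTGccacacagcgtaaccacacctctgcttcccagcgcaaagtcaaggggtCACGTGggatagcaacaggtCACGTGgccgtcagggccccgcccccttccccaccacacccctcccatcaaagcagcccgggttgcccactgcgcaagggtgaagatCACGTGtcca
Of 32851 RefSeq promoter windows of 250 bases, 6.02% held at least 1 E-box on either strand. The letters describe the sequence and do not show that a factor was bound in these cells.

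Of the 3 inhibitors, *Cdkn1a* was called lower and the other two overlapped between genotypes. *Cdkn1a* (ENSMUSG00000023067, chromosome 17, 29090976 to 29100727, plus strand) encodes p21, which p53 induces and which restrains cyclin-CDK complexes. It was the most abundant of the 10 transcripts, with 322, 328 and 345 CPM in C75S against 393, 375 and 359 CPM in WT. Every C75S library was lower, by a small margin between C75S replicate 3 and WT replicate 3. The log2 fold change was -0.18 (SE 0.05), a ratio of 0.882. Its adjusted p of 0.0494 was close to the threshold, and the call was lost in 7 of 15 alternative fits. These included the fits without C75S replicate 1 (log2 fold change -0.16, edgeR adjusted p = 0.177), C75S replicate 2 (-0.17, edgeR adjusted p = 0.164), WT replicate 1 (-0.15, edgeR adjusted p = 0.177) and WT replicate 2 (-0.18, edgeR adjusted p = 0.177), while scaling with the size factors of DESeq2 (0.05005), unstranded counting (0.0504) and library-size scaling (0.0564) left the adjusted p just above the threshold.

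The region before the upstream start of *Cdkn1a* is shown because it holds a response element for p53. In chr17:29090729-29090975 (GRCm38.p6, plus strand, RefSeq), which ends just before the first annotated exon, the capitals mark that element, 51 to 32 bases before the start, a pair of adjacent p53 half-sites with at most 1 mismatch outside their core:
Cdkn1a: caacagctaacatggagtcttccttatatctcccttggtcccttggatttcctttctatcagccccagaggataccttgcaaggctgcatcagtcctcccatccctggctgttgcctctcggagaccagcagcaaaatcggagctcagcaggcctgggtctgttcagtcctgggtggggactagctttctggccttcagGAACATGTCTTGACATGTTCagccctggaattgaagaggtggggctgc
The element was found in 15 of the 32851 promoter windows of this length, or 0.0457%. The window before the other *Cdkn1a* start, at position 29093769, held no such element and 2 GC boxes (GGGCGG, found in 32.7% of windows).

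Other targets of p53 were examined beside *Cdkn1a*. Of 12 listed genes, all tested, 1 fell and 0 rose, where 1.37% of all tested genes were called lower and 1.74% higher. The list's median log2 fold change was -0.03, against -0.003 over all tested genes. The gene that fell was *Trp53inp1*, which encodes a stress-induced nuclear protein that promotes p53 activity. It was at 717, 673 and 710 CPM in C75S and at 867, 866 and 863 CPM in WT, -0.31 on the log2 scale (SE 0.05, edgeR adjusted p = 0.000607); it was called in each of 15 alternative fits (highest adjusted p 0.0105). The listed genes did not go one way: 3 of 12 had a log2 fold change above 0, against 49.1% of all tested genes, and the list's median was 0.005 without C75S replicate 3 and 0.0018 without WT replicate 1. Besides *Trp53inp1*, 3 had an unadjusted p under 0.05 and were not called, and they are named after their values were seen. *Mdm2*, the ubiquitin ligase of p53, differed by -0.12 on the log2 scale (SE 0.05, edgeR adjusted p = 0.333) and *Btg2*, an antiproliferative gene, by -0.12 (SE 0.06, edgeR adjusted p = 0.347). *Plk2*, a polo-like kinase, differed by 0.12 (SE 0.05, edgeR adjusted p = 0.259), and for it and *Bax*, which promotes apoptosis (0.10, SE 0.06, edgeR adjusted p = 0.466), every C75S library was above every WT library. That held for 9.02% of all tested genes.

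*Cdkn1b* (ENSMUSG00000003031, chromosome 6, 134920401 to 134925513, plus strand), which encodes p27, was at 56.0, 55.5 and 57.7 CPM in C75S and at 67.3, 54.2 and 63.7 CPM in WT. WT replicate 2 lay below all C75S libraries, so the groups overlapped, and the log2 fold change of -0.13 (SE 0.07) was not called. It was -0.06 without WT replicate 1 and -0.22 without WT replicate 2. *Cdkn2c* (ENSMUSG00000028551, chromosome 4, 109660876 to 109667189, minus strand), which encodes p18, was at 1.95, 2.56 and 1.39 CPM in C75S against 1.80, 2.10 and 2.23 CPM in WT. The C75S libraries enclosed the whole WT range, and the log2 fold change was -0.04 (SE 0.28). Its sign turned without C75S replicate 3 (0.15) or WT replicate 3 (0.02).

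Per kb, the inhibitor mRNAs were dominated by *Cdkn1a*, which made up 88.1% ± 1.07 of their sum in WT and 87.7% ± 0.33 in C75S. *Cdkn1b* made up 11.3% ± 1.07 and 11.6% ± 0.20, and *Cdkn2c* under 1% in every library (0.469% to 0.905%). The sum was 120.1 ± 5.40 CPM per kb in WT and 106.5 ± 3.46 in C75S, and all C75S libraries were below all WT libraries.

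Of the remaining inhibitor genes of these families and the third pocket protein gene, 3 of 5 could be tested and 0 were called (edgeR quasi-likelihood test, also 0 at an unadjusted p under 0.05, and 0 with DESeq2 and limma-voom). Over all tested genes 3.11% were called, so 0 of 3 says little. *Cdkn2b*, encoding p15, was at 3.60 ± 0.29 CPM in C75S against 2.96 ± 0.60 CPM in WT, and *Rbl2*, encoding p130, at 29.5 ± 1.78 and 30.1 ± 3.32 CPM (SD, n = 3 each). *Cdkn1c*, encoding p57, had 1 to 10 counts per library and was not tested. *Cdkn2a*, encoding p16 and p19, had 0 counts in all 6 libraries, which allows up to 0.143 to 0.177 CPM per library (3 counts, for counting error only).

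The pocket proteins are the substrates that hold E2F factors back. *Rb1* (ENSMUSG00000022105, chromosome 14, 73183673 to 73325822, minus strand), encoding the retinoblastoma protein, was at 21.9, 21.3 and 20.1 CPM in C75S and at 22.2, 23.4 and 23.4 CPM in WT. The groups were separate by a narrow gap between C75S replicate 1 and WT replicate 1. The log2 fold change of -0.12 (SE 0.08) was not called. *Rbl1* (ENSMUSG00000027641, chromosome 2, 157145893 to 157204534, minus strand), encoding p107, was at 4.59, 4.65 and 2.84 CPM in C75S and at 4.04, 2.39 and 3.64 CPM in WT. One library of each genotype, C75S replicate 3 and WT replicate 2, was low, the groups overlapped, and the log2 fold change was 0.26 (SE 0.23). It was 0.07 without WT replicate 2 and 0.46 without C75S replicate 3.

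*Rbl1* is itself a textbook E2F target, and its promoter is shown for that site. In chr2:157204535-157204784 (GRCm38.p6, minus strand, RefSeq) the capitals mark the E2F site, here TTTCGCGC, which ends 11 bases before the start:
Rbl1: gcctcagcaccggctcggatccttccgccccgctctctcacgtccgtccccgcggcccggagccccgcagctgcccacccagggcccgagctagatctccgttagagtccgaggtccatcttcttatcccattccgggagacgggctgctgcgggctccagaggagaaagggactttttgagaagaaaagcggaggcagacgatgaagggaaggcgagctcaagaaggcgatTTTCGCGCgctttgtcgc
The search took TTTCCCGC, TTTCGCGC, TTTGCCGC and TTTGGCGC on both strands, and 1.86% of the 32851 windows held at least 1 of them. None of the windows of the other 6 genes with an entry held one, which says only that these letters are not in those 250 bases.

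**Figure D3:**
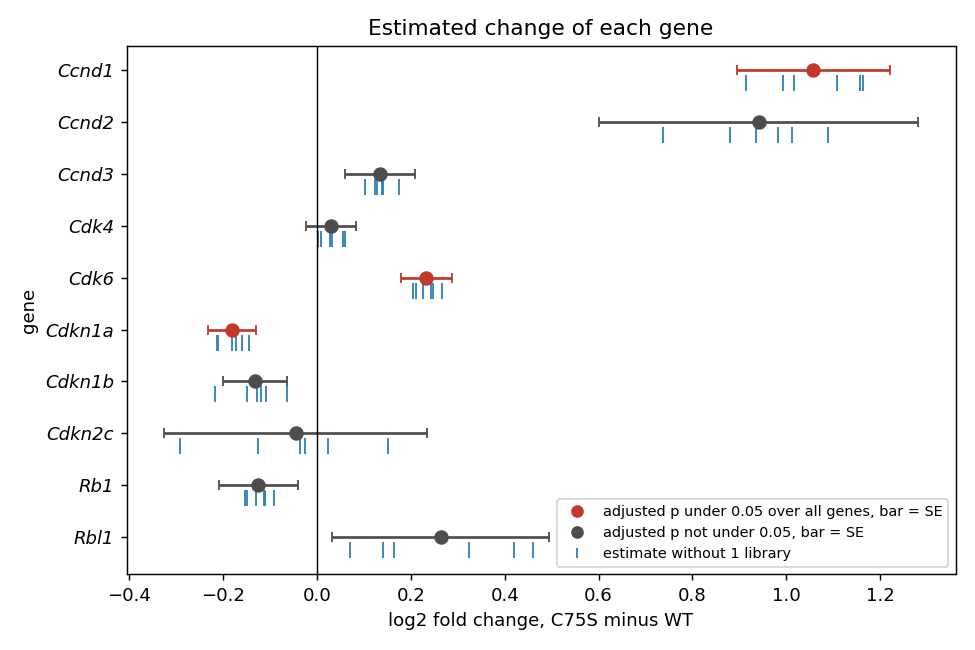
Points give the log2 fold change (C75S over WT) of each of the 10 genes with its SE, and blue ticks give the estimates with each of the 6 libraries left out. The ticks of *Ccnd1* run from 0.91 to 1.16, those of *Cdkn1a* from -0.21 to -0.15, and those of *Cdkn2c* lie on both sides of 0.

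Per kb, the 10 genes spanned a wide range that was ordered alike in both genotypes: *Cdkn1a*, *Cdk4*, *Cdkn1b* and *Cdk6* from the top, then *Rb1* and *Ccnd3*, then *Ccnd1*, *Cdkn2c*, *Rbl1* and *Ccnd2*. *Cdkn1a* averaged 105.8 ± 4.87 CPM per kb in WT. By means over all 6 libraries, *Cdkn1a* exceeded 97.4% of all tested genes and *Ccnd2* 2.43% of them. With this divisor the single exchange was between *Rb1* and *Ccnd3*. *Rb1* was higher in WT (3.69 to 3.90 against 3.23 to 3.58 CPM per kb) and *Ccnd3* in C75S (3.69 to 3.78 against 3.34 to 3.65). The exchange rests on the 8775 bases of merged exons of *Ccnd3*, against 3858 in its longest transcript. Not divided by length, *Ccnd3* (28.4 to 33.1 CPM) was above *Rb1* (20.1 to 23.4 CPM) in every library. Neighbours overlapped for *Ccnd1* and *Cdkn2c* in WT and for *Cdkn2c* and *Rbl1* in both genotypes. In C75S the lowest *Ccnd1* library (1.66) was above the highest *Cdkn2c* library (0.954 CPM per kb).

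The spread within a genotype differed between genes. *Cdkn1a*, *Cdk4* and *Cdk6*, with more than 1000 counts in each library, had coefficients of variation from 2.73% to 4.61%. *Rbl1*, with 49 to 98 counts, varied by 25.6% in each genotype, where counting alone would give 11.7%. This figure, here and below, is taken at the gene's mean count over all 6 libraries, not per genotype. *Cdkn1b*, with 975 to 1417 counts, varied by 2.05% in C75S and by 10.9% in WT, where counting alone would give 2.91%. *Ccnd2* varied by 25.2% in C75S and 9.25% in WT, where counting alone would give 19.9% at the shared mean count. Its counts were 25 to 38 in C75S and 17 to 20 in WT, so that figure is too high for C75S and too low for WT. *Cdkn2c* varied by 29.8% in C75S and by 10.7% in WT, where counting alone would give 15.8%. The standard errors of *Ccnd2* and *Cdkn2c* (0.34 and 0.28) were larger than the log2 fold change of *Cdk6* (0.233), and that of *Rbl1* (0.230) was just below it.

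Strand bears on some of these loci. Of the 10 genes, *Ccnd1* (*LTO1*), *Cdk4* (*Tspan31*) and *Rb1* (*Lpar6* and *Rcbtb2*) have exons of another gene on the opposite strand and more than a few forward-strand counts. The forward-strand column, which counts reads from the opposite strand here, had 36 to 72 counts at *Ccnd1*, 954 to 1231 at *Cdk4* and 73 to 97 at *Rb1*. The other 7 genes had at most 14. At *Ccnd1* the forward-strand counts averaged 2.23 CPM in C75S against 2.84 CPM in WT, with overlapping groups. Counted without regard to strand, *Ccnd1* had a log2 fold change of 0.96 (SE 0.17). No other annotated gene overlapped exons of the 10 genes on their own strand. Among transcripts of other genes at least 90% identical to one of the 10 over 200 bases or more, the highest count was 2.

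Genes around the cyclins were taken from 8 lists by function, with 88 genes, of which 85 were tested. Of these, 4 rose and 1 fell, where 1.74% of all tested genes were called higher and 1.37% lower. The median log2 fold change of the 85 genes was 0.10, against -0.003 over all tested genes. The calls among the 85 were all in genes of S phase, mitosis and p53. Of the 85 genes, 1 was called when WT replicate 2 was left out, 2 without WT replicate 1, 3 without WT replicate 3 or either of C75S replicates 1 and 2, and 7 without C75S replicate 3.

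The E2F factors and their partners showed 0 calls among 10 tested genes (edgeR quasi-likelihood test, 2 at an unadjusted p under 0.05, and 0 calls with DESeq2 and limma-voom). Over all tested genes 3.11% were called, and at that share a list this short can hold 0 calls. The median log2 fold change was 0.00 (0.00227), between -0.04 and 0.05 with 1 library left out. Every C75S library was above every WT library for 1 of the 10 and below for 2, which held for 9.02% and 8.96% of all tested genes. *E2f4*, which represses with p107 and p130 in quiescent cells, was at 84.0 ± 4.36 CPM in C75S against 76.5 ± 2.66 CPM in WT, 0.14 on the log2 scale (SE 0.06, edgeR adjusted p = 0.255). *Tfdp1*, a DNA-binding partner of most E2F factors, was at 33.8 ± 1.22 and 34.0 ± 3.49 CPM. The DREAM complex, with MuvB as its core, silences cell cycle genes in quiescence. The MuvB and DREAM list, which also holds *Mybl2* and *Foxm1*, had 0 of 7 genes called, with 0 at an unadjusted p under 0.05 in edgeR's quasi-likelihood test and 0 calls with DESeq2 and limma-voom. Its median was -0.01, between -0.09 and 0.10 with 1 library left out. Of MuvB, *Rbbp4* was at 67.5 ± 4.76 CPM in C75S against 69.0 ± 5.44 CPM in WT, and *Lin54*, its DNA-binding subunit, at 12.9 ± 0.75 and 14.3 ± 0.23 CPM.

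Genes that turn over cyclin D and p27 had 0 of 11 called in edgeR's quasi-likelihood test (2 at an unadjusted p under 0.05, and 0 calls with DESeq2 and limma-voom) and a median log2 fold change of 0.02. At the 3.11% called over all tested genes, a list this short can hold 0 calls, as can the next one. *Skp1a* and *Cul1*, core subunits of the SCF ubiquitin ligases, had log2 fold changes of 0.06 (SE 0.05, edgeR adjusted p = 0.691) and 0.00 (0.0042, SE 0.05, edgeR adjusted p = 0.98). The later cyclins and CDKs had 0 of 10 tested genes called (edgeR quasi-likelihood test, 3 at an unadjusted p under 0.05, and 0 calls with DESeq2 and limma-voom) and a median of 0.08, which ran from 0.04 to 0.18 with 1 library left out (without C75S replicates 2 and 3, respectively). *Ccna2* was called with no filter on low counts and without C75S replicate 3. *Cdk7* and *Mnat1*, of the kinase that activates CDKs, were at 28.9 ± 0.28 and 21.1 ± 0.12 CPM in C75S against 28.2 ± 1.84 and 20.8 ± 1.49 CPM in WT. *Ccna2*, the cyclin of S phase, is named after its values were seen: it was at 7.35, 6.78 and 5.35 CPM in C75S against 3.47, 4.53 and 4.75 CPM in WT, or 0.61 on the log2 scale (SE 0.18, edgeR adjusted p = 0.0582).

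Among E2F target genes of S phase 3 of 20 rose and 0 fell, and 16 had a log2 fold change above 0, with a median of 0.25. Over all tested genes 1.74% were called higher and 49.1% had a log2 fold change above 0. *Mcm3*, a subunit of the replicative helicase, rose from 5.64 ± 0.42 to 8.69 ± 1.27 CPM (log2 fold change 0.62, SE 0.15, edgeR adjusted p = 0.0188). *Mcm6*, another subunit, rose from 21.1 ± 1.1 to 27.3 ± 4.26 CPM (0.37, SE 0.10, edgeR adjusted p = 0.0317). *Uhrf1*, which maintains DNA methylation at replication, rose from 3.05 ± 0.25 to 4.95 ± 0.59 CPM (0.69, SE 0.19, edgeR adjusted p = 0.045). These calls depended on single libraries. *Mcm3* was not called without C75S replicate 1 or 2 or WT replicate 2 or 3 (edgeR adjusted p from 0.0706 to 0.109). *Mcm6* was not called without C75S replicate 1 or any 1 WT replicate (edgeR adjusted p from 0.0623 to 0.287, the last without C75S replicate 1, where its log2 fold change was 0.24). *Uhrf1* stayed called without C75S replicate 3 and was lost without any 1 of the other 5 libraries (edgeR adjusted p from 0.0614 to 0.189), and was not called by DESeq2 (0.0553) or limma-voom (0.0588).

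Of 12 mitosis genes 1 rose and 0 fell, where 1.74% of all tested genes were called higher and 1.37% lower. All 12 had a log2 fold change above 0, with a median of 0.49, against 49.1% above 0 over all tested genes. In 4 of the 12 every C75S library was above every WT library, which held for 9.02% of all tested genes. Several rest on few counts, such as *Aurkb* (6 to 28 per library, SE 0.50) and *Bub1* (9 to 22, SE 0.41). *Mki67*, a marker of cycling cells, was at 21.8, 17.9 and 13.8 CPM in C75S and at 11.6, 9.80 and 12.2 CPM in WT, or 0.67 on the log2 scale (SE 0.14, edgeR adjusted p = 0.00973). It was not called without WT replicate 1 (edgeR adjusted p = 0.0502) or WT replicate 2 (0.0706). C75S replicate 1 had the highest *Mki67*, *Mcm6* and *Ccna2* levels and C75S replicate 3 the lowest *Mki67*, *Ccnd1* and *Ccna2* levels of that genotype.

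**Figure D4:**
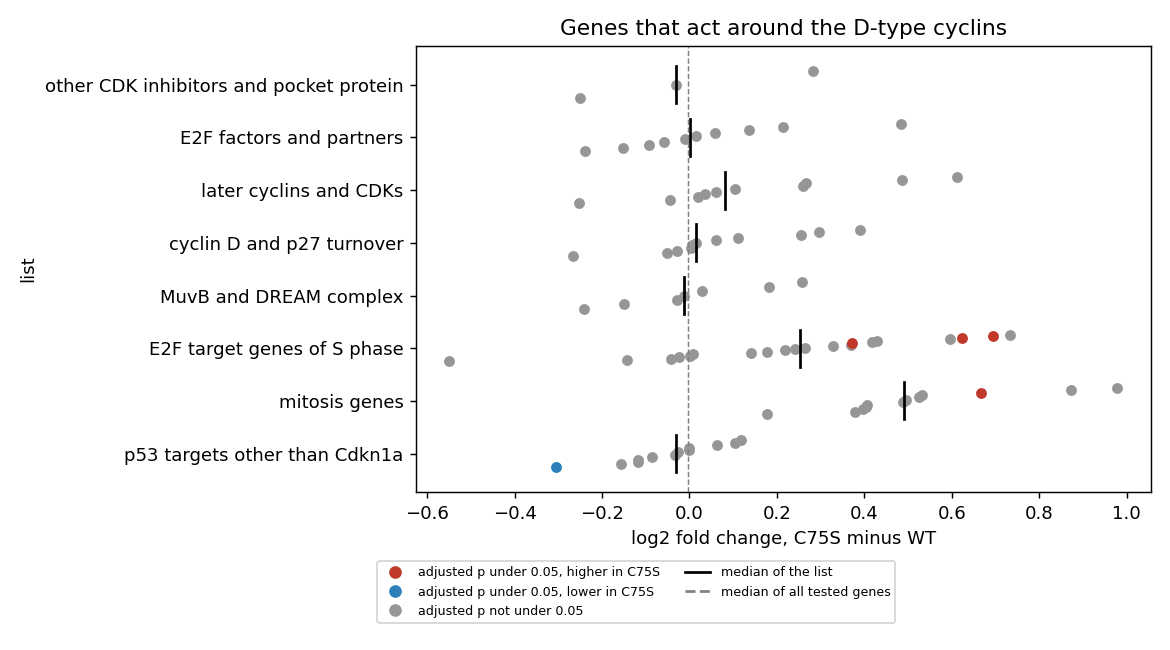
The log2 fold change of each tested gene is plotted by list, with the list median as a black bar and the median of all tested genes (-0.003) as a dashed line. The medians of S-phase (0.25) and mitosis genes (0.49) lie to the right of it, with 4 called genes among them, and the called p53 target lies to the left.

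Markers of other liver cells were counted beside these results, since D-type cyclins are not specific to hepatocytes. Cholangiocyte markers summed to 248 to 315 CPM in C75S against 207 to 216 CPM in WT over 12 genes. Every C75S sum was above every WT sum, as for *Ccnd1*, but the libraries of a genotype were not ordered alike. WT replicate 3 had the lowest WT sum (206.6 CPM) and the most *Ccnd1* in WT (4.997 CPM), while C75S replicate 3 had the lowest of both in C75S. The largest parts of the sum were *Spp1* (131.5 CPM in C75S and 91.0 CPM in WT, on average) and *Cldn4* (63.7 and 43.9 CPM), which were not called. Of the 7 tested, 5 had a log2 fold change above 0 and 1 was called. *Krt19*, a keratin of the biliary epithelium, rose from 5.47 ± 0.26 to 9.52 ± 1.22 CPM (edgeR adjusted p = 0.00151), while *Epcam*, *Cldn7* and *Muc1* were under 1 CPM in every library and *Cftr* was at 0 in all. Stellate cell and fibroblast markers summed to 59.8 to 76.3 CPM in C75S against 73.8 to 95.5 CPM in WT. Most of this sum was *Reln* (58.7 CPM in C75S and 75.2 CPM in WT, on average), which was not called (edgeR adjusted p = 0.394). Among the 12 markers *Acta2*, smooth muscle actin, rose from 2.62 ± 0.53 to 4.65 ± 0.30 CPM (edgeR adjusted p = 0.0255), and 7 of 12, *Col1a1* and *Lrat* included, were under 1 CPM throughout. The sums for endothelial markers (38.7 to 50.4 CPM in C75S, 37.9 to 48.9 in WT) and for Kupffer cells and macrophages (97.1 to 140.6 and 104.3 to 135.4) overlapped, with 4 and 10 of 12 genes under 1 CPM, *Vwf* and *Adgre1* included. The endothelial sum was mostly *Stab2* (24.9 CPM in C75S and 26.4 CPM in WT, on average). Nearly all of the Kupffer cell and macrophage sum was *Cd68* (118.2 CPM in C75S and 116.6 CPM in WT, on average). Of the 8 endothelial genes tested 0 were called (edgeR quasi-likelihood test, 2 at an unadjusted p under 0.05, and 0 calls with DESeq2 and limma-voom), where 3.11% of all tested genes were called. Of these 8 genes 6 had a log2 fold change above 0, with a median of 0.37. *Lyve1* (0.85, edgeR adjusted p = 0.131), *Pecam1* (0.70, edgeR adjusted p = 0.208) and *Kdr* (0.69, edgeR adjusted p = 0.521), named after their values were seen, had every C75S library above every WT library, as *Ccnd1* did. That held for 9.02% of all tested genes, and *Kdr* rests on 10 to 20 counts. *Stab2* (-0.09) and *Egfl7* (-0.12) had log2 fold changes below 0. Of the hepatocyte markers *Fgb* (log2 fold change 0.32, edgeR adjusted p = 0.00112) and *Cyp2e1* (0.31, edgeR adjusted p = 0.00908) rose and *Ahsg* fell (-0.22, edgeR adjusted p = 0.0341). The part of these cells in the level of *Ccnd1* was not tested.

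The transcripts whose pattern was most like that of *Ccnd1* were sought by Pearson's r of log2 CPM over the 6 libraries, among 9360 genes with a mean of at least 5 CPM. The 6 highest were *Mtap*, *Bccip*, *Cks1b*, *Traf3ip2*, *Col4a1* and *Otc*, with r from 0.982 to 0.991. These values are a description, since genes measured in the same libraries share depth and genotype. *Cks1b*, a cofactor of the ligase that degrades p27, was at 6.66, 6.45 and 6.31 CPM in C75S against 4.61, 5.12 and 5.09 CPM in WT (log2 fold change 0.39, SE 0.15, edgeR adjusted p = 0.223). *Col4a1*, a collagen of basement membranes, was at 132, 137 and 131 CPM against 99.9, 113 and 110.2 CPM (0.31, SE 0.05, edgeR adjusted p = 0.00078), and *Otc*, a urea cycle enzyme, at 16.1, 16.9 and 15.6 against 8.55, 9.55 and 11.3 CPM (0.73, SE 0.11, edgeR adjusted p = 0.000322). With the genotype means subtracted, which leaves the differences among replicates, the 3 highest were *Tmub2*, *Gxylt1* and *Slc25a33* (r from 0.993 to 0.996), none of them among the first 6.

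Among the other 9 genes, *Ccnd2* (r = 0.94) and *Cdk6* (0.91) were most like *Ccnd1* over the 6 libraries and *Cdkn1a* was the most opposed (-0.98). With the genotype means subtracted, *Cdkn1a* was at -0.94: in WT the order of the 3 libraries by *Cdkn1a* was the reverse of that by *Ccnd1*, and in C75S the library with the least *Ccnd1*, replicate 3, had the most *Cdkn1a*. *Rb1* went from -0.59 to 0.88 and *Cdk6* from 0.91 to 0.24. With 3 libraries of each genotype these values are a description of the libraries.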

How the data were processed

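Hepatocyte RNA from 6 libraries (3 C75S, 3 WT, grouped by title) was measured as counts per gene. The deposited values are raw read counts in the layout of STAR. The submitters' processing notes name Trim Galore 0.6.6, STAR 2.7.9a, edgeR 3.36.0 and the builds mm10 and GRCm38, and the annotation release is not given in the sources used here. Multimapping reads (17.98% to 18.54%) were not counted to genes. The reverse-strand column, 32.9 to 33.9 times the forward one, was used, without the summary rows.

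Of 55487 identifiers, 55227 matched GENCODE M21 (GRCm38), which gave positions and merged exon lengths. Genes were filtered (filterByExpr, minimum count 10, minimum total 15) and tested with edgeR 4.0.16 (R 4.3.3, TMM, robust quasi-likelihood F-test, genotype as the single term, two-sided, Benjamini-Hochberg over 12741 genes, threshold 0.05). SE is the log2 fold change divided by the square root of F. The procedure was tested on simulated data. Alternatives were 3 other scalings, DESeq2 1.42.0, limma-voom 3.58.1, 2 other filters, unstranded counting, a replicate block and leaving out each library. Copies were sought with BLAST 2.17.0.

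The members and lists were chosen with earlier results of these data known. Named are all members, up to 4 called genes per list (otherwise the 2 with the highest mean CPM), called markers, and the 6 genes (3 with genotype means subtracted) most like *Ccnd1*, without predicted genes.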

Additional observations from a re-analysis of the deposited data

How the results depend on the processing

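The 396 genes called became 201 to 355 with 1 library left out and up to 573 with no filter on low counts. The 3 called members became 1 to 3 with 1 library left out and the 5 called pathway genes 1 to 7. *Ccnd1* was called in each of the 15 alternative fits, *Cdk6* in 13 and *Cdkn1a* in 8. With 1 library left out, estimates of genes that were not called changed sign: *Cdkn2c* ranged from -0.292 to 0.152, *Rbl2* from -0.1135 to 0.0413, *Tfdp1* from -0.0848 to 0.062, *Cdk7* from -0.0046 to 0.0898, *Mnat1* from -0.0319 to 0.0704, *Cul1* from -0.0239 to 0.0355 and *Rbbp4* from -0.0913 to 0.0194, and *Tfdp1* was 0.0007 with library-size scaling. The cause was not tested.

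With the replicate number as a block, 480 genes, 3 members and 6 pathway genes were called. Deviations from the group means of same-numbered libraries correlated at -0.0404 to 0.0254, and those of other pairs at -0.0437 to 0.0241. With 3 libraries per genotype this cannot show whether the numbers pair the libraries. The labels do not say what a number stands for. *Ccnd2*, *Cdkn2c* and *Rbl1* rest on 17 to 98 counts per library. The part of depth in their standard errors was not tested.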
